A study of Mus musculus with 109 samples.

Results

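The levels of 9 genes that write, maintain or erase chromatin marks were described in single cells from the postnatal mouse cerebellum, 32 with much Mki67 message, 75 with little and 2 between. The 9 genes were chosen by symbol and not by a measured level: Ezh2, Eed and Suz12, which form the core of Polycomb repressive complex 2 (PRC2), Dnmt1 and Uhrf1, which maintain DNA methylation, Dnmt3a, which sets it down anew, and Tet1, Tet2 and Tet3, which oxidise it. All 9 were among the 15973 genes listed in the count table. The cells came from cerebella of P7 (postnatal day 7) mice, C57BL/6 by the labels although the study's animal methods name ICR pups, were enriched for granule cell progenitors on a Percoll density gradient, were captured singly on C1 Fluidigm chips and gave Smart-seq libraries, which carry no molecular identifiers. The labels name no treatment and no engineered allele and give every cell the same age and strain. The study describes a single preparation method. Whether animals were pooled is not stated in the sources used here. The sample titles fall into 6 library groups of 18 or 19 cells, and the study speaks of 6 independent batches without tying them to these groups.

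PRC2 places methyl groups on lysine 27 of histone H3 and thereby holds genes silent; EZH2 is its methyltransferase, EED reads the mark and SUZ12 keeps the complex together. DNMT1 copies methylation onto the new DNA strand after replication, guided by UHRF1, which binds hemimethylated DNA, whereas DNMT3A methylates unmethylated sites. The TET enzymes convert methylcytosine to hydroxymethylcytosine, a mark that is abundant in neurons. Granule cell progenitors divide in the outer external granule layer after birth and then leave the cycle to become granule cells, which switch on the microtubule protein gene Dcx as they begin to migrate.

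Cells were divided by Mki67, the gene of the proliferation antigen Ki-67. Levels are given as CPM, the reads of a gene per 1000000 counted reads of its cell. With 100 CPM or more, 32 cells were Mki67-high; with less than 10 CPM, 75 cells were Mki67-low; and 2 cells lay between and entered no class. Each library group held 3 to 8 Mki67-high and 10 to 15 Mki67-low cells. Total counts ran from 15071 to 8616017 per cell, with medians of 4157698 in Mki67-high and 3580460 in Mki67-low cells, and a median of 4968 genes was detected in the former against 4193 in the latter. Most cells carried granule lineage markers, while markers of its progenitors, which the labels name, differed widely in presence. Of the former, Neurod1, a transcription factor gene of the lineage, reached 10 CPM in 105 of all cells. Dcx did so in 100, Zic1 in 97, Meis1 in 90, Tubb3 in 89 and Pax6 in 85, but Rbfox3 in 65, Zic2 in 46 and Barhl1 in 34. Of the progenitor markers, Ccnd2 reached 10 CPM in 86 cells, Sfrp1 in 54, Mycn in 48, Pcna in 47 and Mki67 in 34. Atoh1, a defining progenitor gene, did so in 11 and Gli1 in 8. By contrast, 4 cells carried at least 5 of 8 astroglial or 5 of 8 oligodendrocyte lineage markers at 50 CPM or more (3 Mki67-high, 1 Mki67-low). A further check found 3 cells of unusual depth, 1 with 15071 counts between the classes and 2 Mki67-high cells with over 10000 detected genes; both of the latter were also among the 4. Over the 6 library groups the summed level of 8 astroglial markers ran from 12.7 to 2534 CPM in Mki67-high and from 53.1 to 3141 CPM in Mki67-low cells. That of 7 microglial markers ran from 0 to 207 CPM and from 0 to 3.22 CPM, respectively. The differences in mean log2(CPM + 1), the shares at 10 CPM and the counts of genes together in a cell are also described without the cells of unusual depth or with glial genes. The edgeR fits were repeated without them, and signs that turned are given in the closing section. The limma and DESeq2 fits, the rank correlations and the Dcx tertiles were not repeated. No cell was left out on the basis of microglial markers.

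On a scale per length of annotated exon, the order of the 9 genes by mean CPM per kb over the 6 library groups was Uhrf1 (41.8 ± 24.6, SD, n = 6), Ezh2 (35.5 ± 11.7), Suz12 (30.8 ± 23.2), Eed (18.9 ± 11.9), Tet1 (15.8 ± 10.2), Dnmt1 (13.1 ± 8.62), Tet3 (10.1 ± 10.7), Tet2 (5.43 ± 3.73) and Dnmt3a (4.74 ± 4.87). No neighbours in this order differed beyond their spread: the exact two-sided sign-flip test over the 6 library groups gave p between 0.281 and 0.844 for each step. The lengths are unions of all exons and overstate the transcript where isoforms differ. For Eed, Tet1, Tet3 and Dnmt1, GENCODE places another gene on the same strand within the gene (Gm45120, Gm48353 and Gm26479, 5430434F05Rik and Mir6374, and Mir7081), and the strand setting of the counting is not given in the sources used here, so their reads cannot be told apart from those of such genes or, for Ezh2, Eed, Suz12, Dnmt3a, Tet2 and Tet3, from genes on the opposite strand.

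The promoters of the 9 genes were read from RefSeq (GRCm38.p6) as windows from 250 bases before to 50 bases after each annotated start; 14 windows matched the 9 genes. The letters TTTCCCGC, TTTGGCGC, TTTCGCGC and TTTGCCGC are spellings of the site bound by E2F factors, which switch on genes for DNA synthesis at entry into S phase. On either strand, at least 1 of these spellings stood in a window of 4 of the 9 genes, Ezh2, Suz12, Dnmt1 and Uhrf1, against 702 of all 26994 genes (2.60%) and 742 of all 32817 windows (2.26%). In these windows no E2F spelling shared bases with the other letters searched on both strands. The letters CCAAT stood in windows of 6 of the 9 genes against 41.0% of all genes. The GC box GGGCGG stood in 7 of 9 against 38.2%, and TTTGAA in 3 of 9 against 20.2%. The windows also differed in base composition. Before the start, the 4 windows with an E2F spelling held 63.6% (Ezh2) to 73.6% (Suz12) G and C. They held 23 to 37 CG pairs, against medians of 52.4% and 6 over all windows. The Tet2 window, with no E2F spelling, held 83.6% and 51. Dnmt1 and Dnmt3a had 3 windows each and Uhrf1 had 2. The part of composition and of window number in these shares was not tested. A match is a description of the letters and not of binding. The stretches that hold the matches are shown, 5′ to 3′ on the gene's strand, with the match in capitals:
Suz12: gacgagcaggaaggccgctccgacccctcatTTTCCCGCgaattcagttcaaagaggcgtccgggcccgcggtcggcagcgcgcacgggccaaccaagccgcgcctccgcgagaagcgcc
Uhrf1: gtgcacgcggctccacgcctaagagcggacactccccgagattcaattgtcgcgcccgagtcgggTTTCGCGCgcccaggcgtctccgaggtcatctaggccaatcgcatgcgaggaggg
Dnmt1: ggtttccgcgcGCGCGAAAaagccggggtc
Ezh2: tgggttgctgcgTTTGGCGCtcggtccggt

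The Suz12 stretch lies at chr11:79992856-79992975 (plus strand) and that of Uhrf1 at chr17:56304063-56304182 (plus strand), both upstream of the annotated start; the former lies before the gene and the latter in an intron, upstream of the second of 2 annotated starts. The Dnmt1 stretch at chr9:20952824-20952853 (minus strand), with the letters in reverse, is upstream of the last of 3 annotated starts and falls in the first exon of 2 other Dnmt1 transcripts. The Ezh2 stretch at chr6:47595010-47595039 (minus strand) spans the start itself, in the first exon of 4 transcripts. For Dnmt1 a second spelling follows the same start. The windows of Eed, Dnmt3a, Tet1, Tet2 and Tet3 held none of the spellings.

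The first comparison asked whether the 9 genes differ between Mki67-high and Mki67-low cells of the preparation. The Mki67-low class was not free of cell cycle messages. Over the 6 library groups, its summed level of 20 DNA replication genes ran from 497 over a median of 1206 to 2912 CPM. That of 18 mitosis genes ran from 20.3 over 259 to 1380 CPM. The medians in Mki67-high cells were 3655 and 7737 CPM, respectively. In Mki67-high cells, the PRC2 genes Ezh2 and Suz12, the methylation maintenance genes Uhrf1 and Dnmt1, and Tet2 were present in more cells than in Mki67-low cells. The mean log2 level per cell was higher for these 5 genes in all 6 library groups. For Tet1, Tet3, Dnmt3a and Eed the library groups did not all move one way. When reads were summed over cells, no difference of the 9 genes passed the test.

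Ezh2 showed the widest presence of the 9. In the 32 Mki67-high cells it ran from 0 in 2 cells over a median of 196 CPM to 1656 CPM, and 29 cells (90.6%, 95% Wilson interval 75.8 to 96.8) reached 10 CPM. In the 75 Mki67-low cells it ran from 0 in 17 cells over a median of 1.57 CPM to 1610 CPM, and 30 cells (40.0%, 29.7 to 51.3) reached 10 CPM. The classes therefore overlapped over the whole range, and what separated them was the number of cells near 0. Among the cells at 10 CPM or more, the median Ezh2 level was 220 CPM in Mki67-high and 342 CPM in Mki67-low cells. The threshold of 10 CPM was set because many low values rested on a few reads: 21 of the Mki67-low cells held 1 to 5 Ezh2 reads. The intervals cover counting error only.

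Uhrf1, the partner that brings DNMT1 to replicated DNA, had a median of 205 CPM in Mki67-high cells (0 in 5 cells, highest 2027) and of 0.426 CPM in Mki67-low cells (0 in 27 cells, highest 1587). It reached 10 CPM in 24 of 32 (75%, 57.9 to 86.7) and in 15 of 75 cells (20%, 12.5 to 30.4). Its level split the Mki67-high cells without a middle, since 24 of them held 40.3 CPM or more and 8 held less than 0.5 CPM. Suz12 had medians of 69.2 and 0 CPM, highest values of 2764 and 2488 CPM, and 21 of 32 (65.6%, 48.3 to 79.6) against 16 of 75 cells (21.3%, 13.6 to 31.9) at 10 CPM. Dnmt1 had medians of 17.4 and 0.165 CPM, highest values of 1380 and 1807 CPM, and 18 of 32 (56.3%, 39.3 to 71.8) against 16 of 75 cells. Thus for each of these genes some Mki67-low cells held levels as high as those of Mki67-high cells, but fewer of them did.

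Of the TET genes, Tet2 had medians of 27 and 0.430 CPM and reached 10 CPM in 18 of 32 (56.3%, 39.3 to 71.8) and 21 of 75 cells (28.0%, 19.1 to 39.0). Unlike Ezh2, its level among the cells that reached 10 CPM was also the higher one in the Mki67-high class, with a median of 216 against 34.5 CPM. The same held for Suz12, with 165 against 116 CPM. The highest Tet2 value was nevertheless in a Mki67-low cell, at 2040 CPM against 522 CPM in Mki67-high cells. Tet1 reached 10 CPM in 14 of 32 (43.8%) and 24 of 75 cells (32.0%), and Tet3 in 16 of 32 (50%) and 29 of 75 cells (38.7%), with overlapping intervals. The highest values of these genes were in Mki67-low cells, 4017 CPM for Tet1 and 3347 CPM for Tet3. Dnmt3a reached 10 CPM in 14 of 32 (43.8%, 28.2 to 60.7) and 14 of 75 cells (18.7%, 11.5 to 28.9). Eed, the PRC2 subunit seen least, did so in 9 of 32 (28.1%, 15.6 to 45.4) and 10 of 75 cells (13.3%, 7.41 to 22.8). Its median was 0.201 CPM in Mki67-high and 0 CPM in Mki67-low cells.

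**Figure D1:**
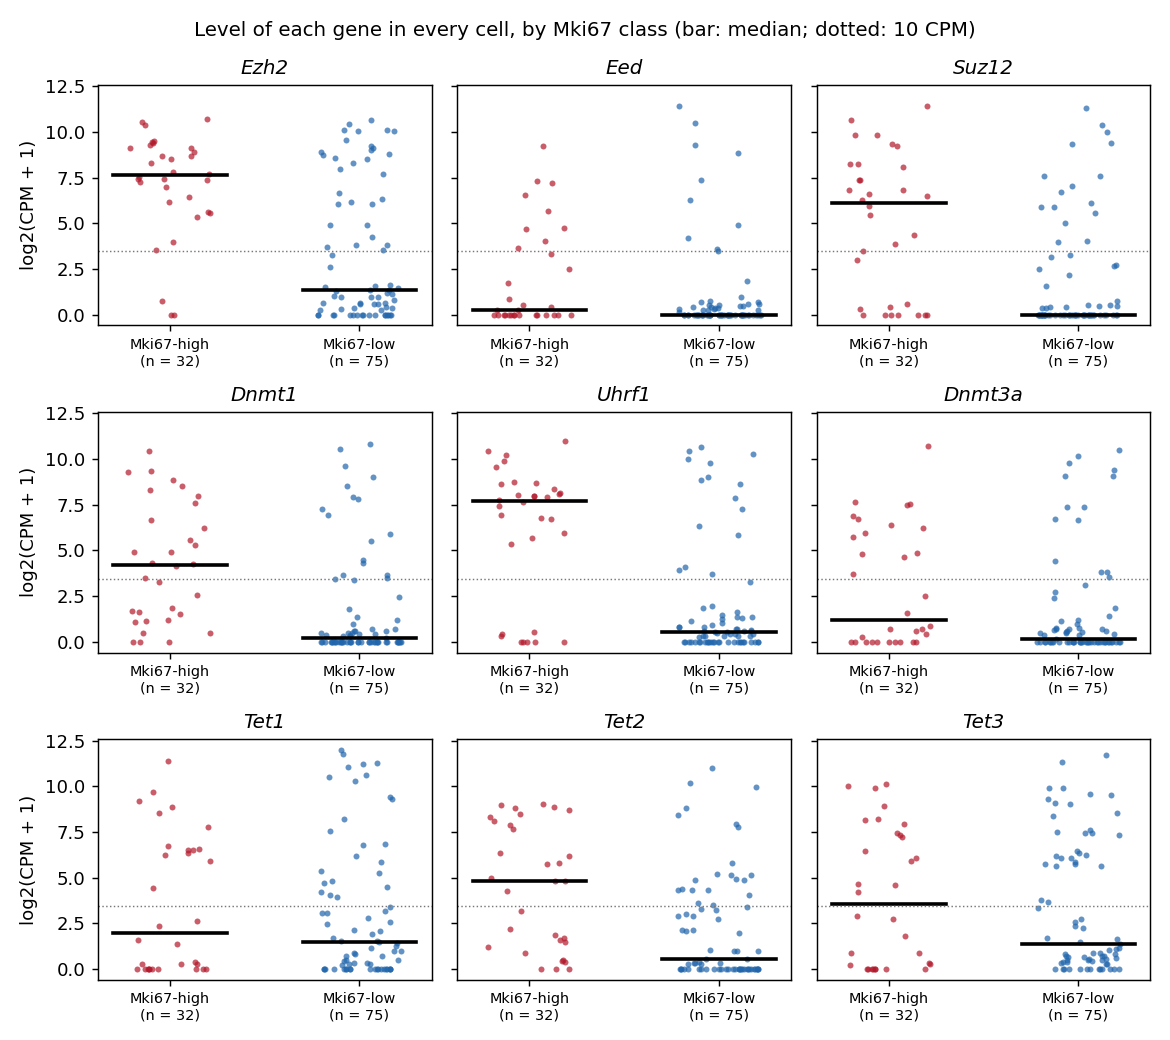
Level of each of the 9 genes in every cell, as log2(CPM + 1) on the vertical axis, for 32 Mki67-high (red) and 75 Mki67-low cells (blue); the bar is the median and the dotted line 10 CPM. Ezh2 and Uhrf1 medians stand at 196 and 205 CPM in Mki67-high cells and near the floor in Mki67-low cells, while single blue points reach as high as the red ones.

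**Figure D2:**
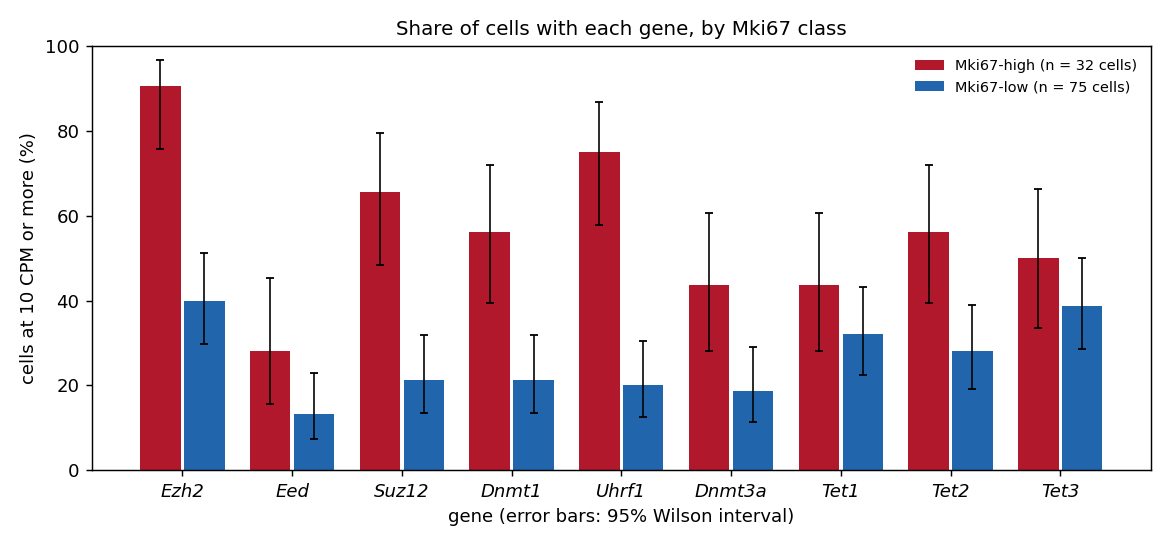
Share of cells at 10 CPM or more of each gene, in percent, for Mki67-high (red, n = 32) and Mki67-low cells (blue, n = 75), with 95% Wilson intervals. The intervals lie apart for Ezh2, Suz12, Dnmt1, Uhrf1 and Tet2 and overlap for Eed, Dnmt3a, Tet1 and Tet3.

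Because cells of a library group share their preparation, the classes were compared over the 6 library groups. Nothing in the labels says that these groups are separate animals or cultures, so the p-values measure the spread between library groups, which may be technical. The difference in mean log2(CPM + 1), Mki67-high minus Mki67-low, was 3.88 ± 0.78 (SD, n = 6) for Ezh2, 4.24 ± 2.5 for Uhrf1, 3.11 ± 1.11 for Suz12, 2.59 ± 1.70 for Dnmt1 and 2.52 ± 1.08 for Tet2. Each of these was above 0 in 6 of 6 library groups, with an exact sign-flip p of 0.03125, the smallest that 6 groups allow. Of the 9084 genes tested, 716 (7.88%) were higher in all 6 library groups and 106 (1.17%) lower, against 5 and 0 of the 9 genes. The median of all 9084 genes on this scale was 0.43, and the 5 differences were 2.09 to 3.81 above it. The pseudocount of 1 CPM understates differences of low genes.

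Ezh2 varied least between library groups, from 2.95 in group 1 to 4.94 in group 6. Uhrf1 varied most, from 0.35 in group 2 to 7.10 in group 4. Dnmt1 was lowest in group 1 (0.40) and highest in group 3 (4.55). Its value in group 1 and that of Uhrf1 in group 2 lay below the median of all genes over the 6 groups (0.43). The other members gave 1.21 ± 1.85 for Dnmt3a (higher in 5 of 6 groups, exact p = 0.188), 1.05 ± 0.87 for Tet3 (5 of 6, exact p = 0.0625), 0.94 ± 1.82 for Eed (3 of 6, exact p = 0.25) and 0.64 ± 0.99 for Tet1 (4 of 6, exact p = 0.156). The share of cells at 10 CPM, compared in the same way, was higher in 6 of 6 library groups for Ezh2 (by 50.8 ± 13.2 percentage points), Suz12 (46.1 ± 20.9) and Tet2 (31.9 ± 13.9), each with an exact p of 0.03125. Uhrf1 gave 57.7 ± 32.0 points (5 of 6, 1 tie, exact p = 0.0625) and Dnmt1 35.1 ± 33.8 points (5 of 6, exact p = 0.0938). Of all 9084 genes, 538 (5.92%) had a higher share in all 6 library groups.

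The 5 genes stayed above 0 in 6 of 6 library groups when the 3 cells of unusual depth were left out (2.34 for Tet2 to 4.29 for Uhrf1), when the 4 cells with glial genes were left out (2.33 for Tet2 to 4.17 for Uhrf1) and when each cell was thinned to 1000000 counts, which drops the cell of 15071 counts. The shares of cells at 10 CPM stayed within their intervals for all 9 genes, but leaving out so few cells could hardly move them further. The number of detected genes moved with the class, as given above, and its part in these differences was not tested beyond the thinning. Across all cells, Spearman's rho with the number of detected genes was 0.15 for Tet3 to 0.38 for Uhrf1, as a description of cells that share libraries.

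**Figure D3:**
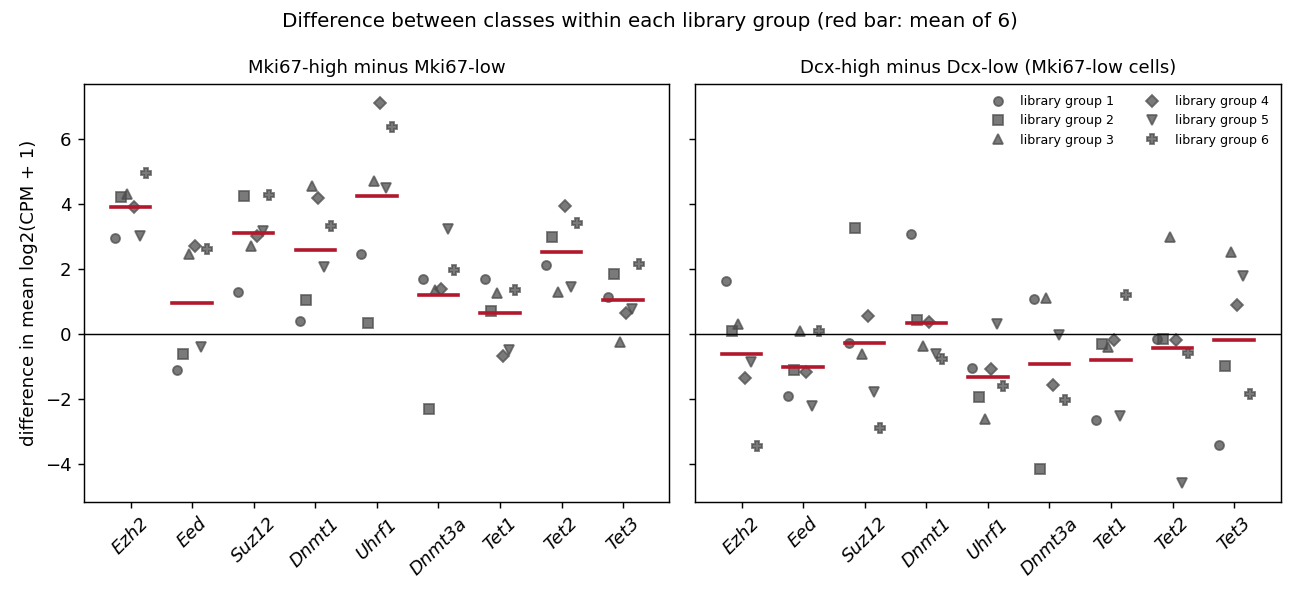
Difference in mean log2(CPM + 1) between classes within each of the 6 library groups (symbols), with the mean of the 6 as a red bar, for Mki67-high minus Mki67-low cells (left) and Dcx-high minus Dcx-low cells among the Mki67-low cells (right). On the left all 6 symbols lie above 0 for Ezh2, Suz12, Dnmt1, Uhrf1 and Tet2, and on the right no gene has all 6 on one side.

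Summed reads gave a weaker picture. For every library group, the reads of each class were added together and compared with edgeR's quasi-likelihood test, with Benjamini-Hochberg adjustment over all genes. The summed Ezh2 level ran from 213 over a median of 360 to 629 CPM in Mki67-high cells and from 15.5 over 149 to 319 CPM in Mki67-low cells. It was the higher one in 5 of 6 library groups, with the exception of group 5 (317 against 319 CPM), and the ranges overlapped. The log2 fold change was 1.10 (SE 0.71, 95% interval -0.40 to 2.61, adjusted p = 0.759). Uhrf1 ran from 126 over 262 to 770 CPM against 0.703 over 76.2 to 197 CPM, with a log2 fold change of 1.64 (SE 0.96, interval -0.39 to 3.67, adjusted p = 0.731). Suz12 ran from 56.3 over 306 to 513 CPM against 11.4 over 75.1 to 280 CPM, with 1.37 (SE 0.90, adjusted p = 0.763).

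No member was called by edgeR at an adjusted p under 0.05, where 6 of 9084 genes (0.0661%) were called, all higher in Mki67-high cells; 666 genes had an unadjusted p under 0.05. The remaining members had log2 fold changes of 1.26 (SE 1.39) for Dnmt3a, 0.79 (SE 0.96) for Tet2, 0.69 (SE 1.14) for Dnmt1, 0.59 (SE 1.02) for Tet3, -0.12 (SE 0.98) for Tet1 and -1.62 (SE 1.63) for Eed, with adjusted p-values of 0.860 to 0.993. The median over all genes was -0.18. The Dnmt3a value rests on library group 1 and turns to -0.90 without it, and the Tet1 value changes sign without group 2, 4 or 5 and under other scalings. Single cells also carried much of the level of a class. When CPM were added over all 32 Mki67-high cells, the highest cell alone held 13.8% for Ezh2. For Dnmt1 it held 29.7%, for Tet1 46.0%, for Eed 52.7% and for Dnmt3a 58.9%. These shares are of the whole class and not of the reads of 1 library group, where only 3 to 8 cells were summed and 1 cell can weigh more.

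On the mean log2(CPM + 1) of each class in each library group, with every mean weighted equally, limma called 173 of 9084 genes higher (1.90%) and 7 lower (0.0771%). Among the 9 members it called Uhrf1 (adjusted p = 0.00479), Ezh2 (adjusted p = 0.00495) and Dnmt1 (adjusted p = 0.0485); Suz12 (adjusted p = 0.0510) and Tet2 (adjusted p = 0.0584) did not pass. DESeq2 on the sums called 472 of 11062 genes higher (4.27%) and 252 lower (2.28%), and no member: its adjusted p was 0.227 for Uhrf1, 0.269 for Ezh2 and 0.30 for Suz12, and it gave none for Dnmt3a. The calls for Ezh2, Uhrf1 and Dnmt1 thus hold for the level per cell and not for the summed reads. The limma fit did not enter the library group as a block.

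**Figure D4:**
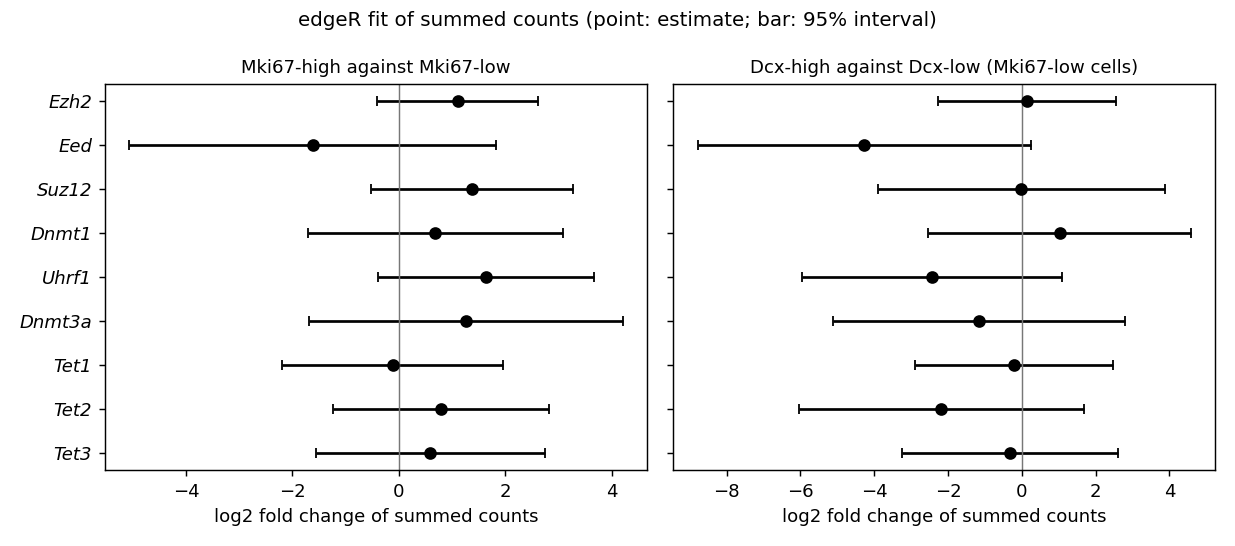
Log2 fold change of summed counts from edgeR (point) with its 95% interval (bar) for each of the 9 genes, for Mki67-high against Mki67-low (left) and Dcx-high against Dcx-low cells among the Mki67-low cells (right). Every interval crosses 0; the lower bound comes closest to it on the left for Uhrf1 (-0.39) and Ezh2 (-0.40).

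The 9 genes were also counted together in the same cell, as a description. The counts were not set beside those of other genes, and more genes were detected in Mki67-high cells. Nor were they compared with what the share of each gene alone would give, so a joint presence beyond that was not tested. A median of 5 of them reached 10 CPM in Mki67-high cells and of 2 in Mki67-low cells. Ezh2 and Suz12 were together in 20 of 32 Mki67-high cells (62.5%, 45.3 to 77.1) and 4 of 75 Mki67-low cells (5.33%, 2.09 to 12.9). All 3 PRC2 core genes were together in 7 of 32 and 1 of 75, and none of them was at 10 CPM in 2 of 32 and 30 of 75. Dnmt1 and Uhrf1 were together in 14 of 32 (43.8%, 28.2 to 60.7) and 6 of 75 cells (8%, 3.72 to 16.4). At least 1 TET gene was seen in 26 of 32 and 49 of 75 cells. No Mki67-high cell lacked all 9, whereas 8 of 75 Mki67-low cells did; a count of 0 of 32 allows a share of up to 10.7% by the Wilson interval. Only the 2 Mki67-high cells of over 10000 detected genes held all 9. Without the cells of unusual depth and those with glial genes, Ezh2 and Suz12 were together in 18 of 29 Mki67-high cells, the 3 PRC2 genes in 5 and Dnmt1 with Uhrf1 in 11, and the median stayed at 5.

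Ezh1 encodes the other methyltransferase of PRC2, which is found in non-dividing cells of many tissues. It reached 10 CPM in 7 of 32 Mki67-high and 12 of 75 Mki67-low cells. Ezh1 without Ezh2 was seen in 0 of 32 Mki67-high and 11 of 75 Mki67-low cells (14.7%, 8.39 to 24.4). Its difference in mean log2(CPM + 1) was 0.25 ± 0.99 (higher in 2 of 6 library groups, exact p = 0.531), and its log2 fold change of summed counts was -1.15 (SE 1.28, adjusted p = 0.878). The level of Ezh1 thus did not differ detectably, while the pairing with Ezh2 in the same cell is given as counts only.

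Other genes of the same pathways were taken from lists and are given as counts, beside a median log2 fold change of -0.18 over all genes. Of 6 tested PRC2 subunits beyond the core, none was called by edgeR, with a median of 0.31; Rbbp7, a histone-binding subunit, was highest in size (1.73, SE 1.07) and was called by limma (2.80, adjusted p = 0.0180), and Jarid2, a recruiting subunit, gave -1.48 (SE 0.79). Of 15 tested PRC1 subunits, which bind and compact PRC2-marked chromatin, none was called by edgeR or limma, DESeq2 called 1 lower, and 5 were above 0, with a median of -1.14; Cbx2, a reader of the mark, gave 6.27 (SE 2.30, adjusted p = 0.561) and Pcgf6 gave -4.32 (SE 2.22). The histone demethylases that remove the PRC2 mark were not called either, with 1.64 (SE 1.03) for Kdm6a and -0.49 (SE 1.04) for Kdm6b. Of 11 tested partners and readers of DNA methylation none was called, with a median of -0.10; Mbd3 gave -2.92 (SE 2.18) and Smug1 gave -2.03 (SE 1.98), and the sign of Smug1 turned under limma and without library group 2.

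Among 18 tested DNA replication genes, 17 were above 0, none was called by edgeR and 3 were called by limma (Rrm2, Tyms and Mcm7, named after their values were seen), with a median of 1.30. The largest were the helicase genes Cdc45 (3.89, SE 2.36, adjusted p = 0.751) and Mcm5 (3.70, SE 1.78, adjusted p = 0.677). Of 17 tested mitosis genes, edgeR called 3 and limma 15, all higher: the median was 5.56, and the called genes were Cdc20 (11.08, SE 1.5, adjusted p = 0.00526), an activator of the anaphase-promoting complex, and the kinase genes Bub1 (11.03, SE 1.70, adjusted p = 0.0141) and Aurkb (10.18, SE 1.57, adjusted p = 0.0141). Bub1 lost its call with the library group as a block (adjusted p = 0.0588) and without group 3, 4, 5 or 6 (adjusted p = 0.0598 to 0.135), and Aurkb without group 4, 5 or 6 (adjusted p = 0.0934 to 0.106). On summed counts the 9 members, from -1.62 to 1.64, all lay below the median of the mitosis genes. Uhrf1 and Suz12 lay above the median of the replication genes and the other members below it. On mean log2(CPM + 1) the median of the mitosis genes was 4.055. Uhrf1 lay above it (4.24), and the other members lay below it, from 0.64 for Tet1 to 3.88 for Ezh2. These are descriptions with no test.

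For the marker lists, none was called by edgeR in 6 to 9 tested genes of each of 4 lists: granule lineage (median -0.63; Dcx -2.23, SE 0.59, adjusted p = 0.372, and Tubb3 -1.48, SE 0.40; limma called Dcx lower, by -2.61 with an adjusted p of 0.0257), progenitor (1.21; Atoh1 3.85, SE 2.18, and Gli1 1.46, SE 2.21; limma called 1 gene of the list higher), astroglial (-0.07; Apoe 1.76, SE 2.03, and Aldoc -1.37, SE 2.22) and oligodendrocyte lineage genes (0.20; Olig2 -3.22, SE 2.30, and Cnp -2.90, SE 1.55). Of 6 GABAergic and Purkinje genes with counts, 2 were tested and neither was called by edgeR (Pax2 -7.11, SE 2.05, adjusted p = 0.422, and Gad1 -6.80, SE 1.95, adjusted p = 0.416), whereas DESeq2 called both lower in Mki67-high cells (adjusted p = 1.52e-05 for Pax2 and 0.00196 for Gad1). The summed level of these 6 genes ran from 0.0295 to 29.2 CPM in Mki67-high and from 36.2 to 803 CPM in Mki67-low cells. No microglial or endothelial and mural gene passed the filter, and DESeq2, which tested 7 and 4 of them, called 3 and 1 higher. The part of these cells in the differences of the 9 genes was not tested beyond leaving out the cells named above.

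Over single cells, the genes whose level followed that of a member most closely are given as Spearman's rho over all cells, among 8641 genes that had reads in 20 cells or more; the cells share library groups and the values carry no p. For Uhrf1 they were Rrm2 (0.63), H2afz (0.63) and 2810417H13Rik (0.62), and for Dnmt1 they were Rrm2 (0.49), Hmgb2 (0.47) and Naa10 (0.46). For Suz12 they were Pola1 (0.48), Cks1b (0.46) and Cenpj (0.46), and for Ezh2 Mybl1 (0.47), Ncapg (0.42) and Kif4 (0.40). Rrm2 makes deoxynucleotides and Pola1 starts DNA strands, whereas Ncapg and Kif4 act on chromosomes in mitosis. The neighbours of the other members were Trim41 (0.45), Ndnl2 (0.45) and Chrac1 (0.42) for Dnmt3a, 2810025M15Rik (0.40) and Pno1 (0.37) for Eed, Rrbp1 (0.40), Tmc3 (0.39) and Aldh16a1 (0.37) for Tet1, Ndufa6 (0.45), Ube3b (0.44) and RP23-254F23.1 (0.41) for Tet2, and Bcas1 (0.53), Prcp (0.51) and Pcdh19 (0.45) for Tet3. Within the 32 Mki67-high cells, Dnmt1 had a rho of 0.52 with the summed replication genes and -0.14 with the summed mitosis genes, and Ezh2 had 0.02 and 0.31, while Uhrf1 had 0.23 and 0.28, and Suz12 0.31 and 0.19. The other members had -0.05 to 0.08 with the former and -0.25 to 0.11 with the latter. Among the members themselves the highest was 0.39, between Dnmt1 and Uhrf1; Suz12 had 0.36 with Dnmt1 and 0.35 with Uhrf1, but 0.10 with Ezh2.

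The second comparison concerned Dcx, the marker of cells that have begun to differentiate. Over all cells split into tertiles by Dcx, Ezh2 reached 10 CPM in 27 of 36, 18 of 36 and 16 of 37 cells from the lowest to the highest tertile (75%, 50% and 43.2%). Uhrf1 did so in 18, 14 and 9 cells, Dnmt3a in 13, 8 and 7, and Eed in 11, 8 and 2. Tet2 was seen most in the middle tertile, in 12, 19 and 9 cells, and Tet3 in 19, 14 and 13. Suz12 was seen in 12, 15 and 11, Tet1 in 15, 16 and 9, and Dnmt1 in 13, 13 and 9 cells. Mki67 moved with these tertiles: 17, 12 and 3 of the cells were Mki67-high, and the 2 markers cannot be told apart over all cells. Spearman's rho of the members with Dcx was -0.22 to -0.07 over all cells.

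**Figure D5:**
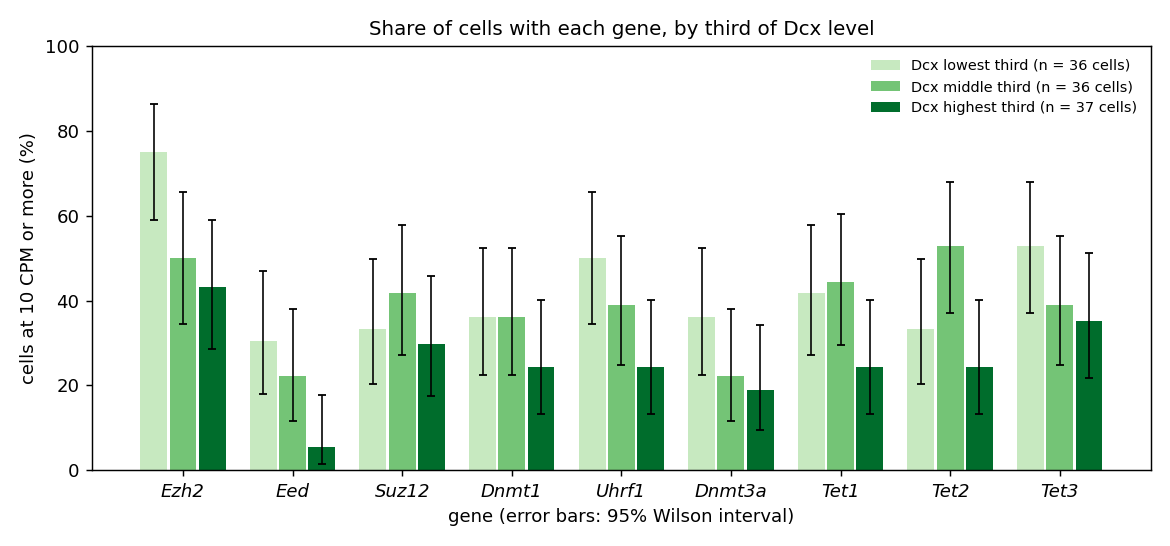
Share of cells at 10 CPM or more of each gene, in percent, in the lowest, middle and highest tertile of Dcx level over all cells (36, 36 and 37 cells, light to dark green), with 95% Wilson intervals. Ezh2 stands at 75%, 50% and 43.2% with overlapping intervals, and Eed is the gene whose intervals lie apart between the lowest and the highest tertile (18 to 46.9 against 1.5 to 17.7).

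To separate Dcx from Mki67, the 75 Mki67-low cells were split at their median Dcx level of 1781 CPM into 38 Dcx-high and 37 Dcx-low cells. Both comparisons use these Mki67-low cells. Ezh2 reached 10 CPM in 13 of 38 Dcx-high (34.2%, 21.2 to 50.1) and 17 of 37 Dcx-low cells (45.9%, 31.0 to 61.6). Its difference in mean log2(CPM + 1), Dcx-high minus Dcx-low, was -0.60 ± 1.72 (higher in 3 of 6 library groups, exact p = 0.5). Its summed level ran from 22.9 over a median of 151 to 304 CPM in Dcx-high and from 5 over 178 to 330 CPM in Dcx-low cells, with a log2 fold change of 0.14 (SE 1.15, interval -2.28 to 2.56). The interval covers large changes in both directions, so the comparison was imprecise.

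Uhrf1 gave the lowest exact p on mean log2(CPM + 1), with a difference of -1.33 ± 0.98 (lower in 5 of 6 library groups, exact p = 0.0625). Its summed level ran from 0.147 over 9.52 to 133 CPM in Dcx-high and from 0.514 over 153 to 327 CPM in Dcx-low cells. Eed had the largest log2 fold change of summed counts and the lowest exact p on shares (lower in 5 of 6 groups with 1 tie, exact p = 0.0625), at 10 CPM in 2 of 38 Dcx-high and 8 of 37 Dcx-low cells (5.26%, 1.46 to 17.3, against 21.6%, 11.4 to 37.2). Its difference was -1.03 ± 0.97 (lower in 4 of 6 groups, exact p = 0.125), and 448.9 CPM in library group 5 was its highest sum. The summed Eed level rested on few cells. The highest cell alone held 95.2% of the Eed CPM added over all Dcx-high cells and 53.4% of that added over all Dcx-low cells. Leaving out 1 library group moved the log2 fold change of Eed between -8.085 and -2.947. The other members gave differences from -0.94 for Dnmt3a to 0.35 for Dnmt1 with exact p-values of 0.281 to 0.781. None of the 9 was higher or lower in all 6 library groups; of all 6682 genes tested, 93 (1.39%) were higher and 110 (1.65%) lower in all 6. The share of cells at 10 CPM was higher in all 6 library groups for 57 genes (0.853%) and for none of the 9.

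On the summed reads, edgeR called 0 of 6682 genes (0.0%) between Dcx-high and Dcx-low cells, with 345 genes at an unadjusted p under 0.05; limma called 0 as well, and DESeq2 321 higher (3.88%) and 465 lower (5.62%) of 8281. No member was called by any of the 3 tools. The log2 fold changes were -4.27 (SE 2.15) for Eed, -2.44 (SE 1.68) for Uhrf1, -2.19 (SE 1.84) for Tet2, -1.15 (SE 1.88) for Dnmt3a, -0.32 (SE 1.39) for Tet3, -0.22 (SE 1.27) for Tet1, -0.02 (SE 1.85) for Suz12 and 1.02 (SE 1.69) for Dnmt1. The signs of Ezh2, Suz12, Dnmt1, Dnmt3a, Tet1 and Tet3 turned when a library group was left out, as listed in the closing section.

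The pathway lists showed no call by edgeR or limma here, beside a median of 0.03 over all genes. The medians were -0.18 for 6 other PRC2 subunits (Ezh1 1.97, SE 1.92, and Aebp2 -1.66, SE 1.69), -0.53 for 12 PRC1 subunits (Yaf2 3.11, SE 2.04, and Pcgf3 -2.21, SE 1.5), -0.10 for the demethylases (Kdm6a -0.12, SE 1.71, and Kdm6b -0.09, SE 1.28) and 0.22 for 9 methylation partners and readers (Smug1 -5.08, SE 2.64, and Tdg -1.90, SE 1.77). They were -1.22 for 13 replication genes (Mcm3 -5.17, SE 2.17, and Mcm4 -4.23, SE 1.89) and -3.09 for 6 mitosis genes (Cenpe -8.24, SE 2.69, and Cenpf -4.36, SE 1.85). DESeq2 called 1 of 13 tested PRC1 subunits higher, 1 of 12 replication genes higher and 1 lower (Mcm3, -5.14, adjusted p = 0.0284), and 2 of 4 mitosis genes lower (Cenpe, adjusted p = 0.000619, and Cenpf, adjusted p = 0.0153).

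Of the marker lists in the same comparison, granule lineage genes had a median of 0.01 over 8 (Barhl1 1.26, SE 1.46, and Rbfox3 -0.76, SE 0.95), progenitor genes -0.99 over 5 (Ccnd2 -1.82, SE 0.84, and Pcna -1.75, SE 1.40) and astroglial genes -4.32 over 4 (Sparcl1 -7.67, SE 2.59, and Fabp7 -4.76, SE 2.38). Oligodendrocyte lineage genes had -1.01 over 3 (Cnp -2.42, SE 2.05, and Mbp -1.01, SE 1.55), and the 2 tested GABAergic and Purkinje genes were Gad1 (5.34, SE 2.01) and Pax2 (2.61, SE 2.22). The summed level of the 8 astroglial markers ran from 51.1 to 212 CPM in Dcx-high and from 1.20 to 5942 CPM in Dcx-low cells, and its part in the differences of the 9 genes was not tested. Of the marker lists DESeq2 called 3 of 7 astroglial genes lower (Sparcl1, adjusted p = 0.00195), 1 of 5 oligodendrocyte lineage genes lower and 1 of 3 GABAergic and Purkinje genes higher (Gad1, adjusted p = 0.0284), and edgeR and limma none.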

How the data were processed

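Single cells of P7 mouse cerebella were profiled by Smart-seq. Reads were mapped by the authors with STAR 2.4.1d (build mm10) and assigned to genes with HTSeq-count 0.6.1; they deposited raw counts without normalization; the annotation and strand setting are not given in the sources used here. All cells were kept, with no call of doublets; 71.0% of the values were 0. The 9 genes, the gene lists and the class limits were chosen with earlier results of these data known. Library groups follow the sample titles.

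Counts were converted to CPM. For the main test, counts were summed per class and library group, filtered with filterByExpr, normalized by TMM and compared with edgeR 4.0.16 (quasi-likelihood, Benjamini-Hochberg, adjusted p under 0.05); Mki67 or Dcx, which define the classes, were not tested. All 9 genes passed the filter. Mean log2(CPM + 1) and shares of cells were compared per library group by an exact two-sided sign-flip test; the test on shares was added after the shares were seen. limma 3.58.1 and DESeq2 1.42.0 were alternatives. Intervals are Wilson at 95%. Only the edgeR fit was run on simulated counts, which had less spread between sums than the data, and no result here rests on that run. The limma, DESeq2 and sign-flip tests were not run on simulated data. Named genes are the 9 members, list genes called by edgeR or else the 2 of largest absolute log2 fold change per list, and the 3 genes of highest rho per member, of which 1 is not reported here. Gene models are GENCODE vM21.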

Additional observations from a re-analysis of the deposited data

Results flagged for a closer look

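Groups of 6 library groups were searched for a value far from the rest, by Dixon's criterion at the 95% level. Of 54 sets tested 12 held such a value. The chance rate of about 1 in 20 holds for normally distributed values. Whether the summed levels follow that distribution was not tested, so the 12 are not read as an excess. Between Mki67 classes, the summed level in Mki67-high cells stood apart for Uhrf1 in library group 6 (769.5 CPM, next 329), for Dnmt3a in group 1 (641.4, next 77.5) and for Tet1 in group 1 (936.2, next 157). Dnmt3a also stood apart in the Mki67-low cells of group 2 (251.7 CPM, next 59.1), and its difference in mean log2(CPM + 1) was lowest there (-2.31, next 1.34).

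Among the Mki67-low cells, the summed level in Dcx-high cells of library group 6 stood apart for Eed (42.4 CPM, next 2.18) and Uhrf1 (133.4, next 32.1). In Dcx-low cells it stood apart for Suz12 in group 6 (519.7 CPM, next 34.4), Dnmt1 in group 5 (188 CPM, next 52.6), Dnmt3a in group 2 (527.7, next 43.9) and Tet3 in group 1 (844.9, next 144). The difference in mean log2(CPM + 1) of Dnmt1, Dcx-high minus Dcx-low, was highest in group 1 (3.07, next 0.43).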

How the results depend on the processing

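In the Mki67 comparison edgeR called 6 genes; DESeq2 called 724, limma 180 and an adjusted p under 0.01 left 2, and leaving out 1 library group gave 2 to 8 (2 without group 5 or group 6). In the Dcx comparison edgeR called 0, DESeq2 786, and leaving out 1 library group gave 0 to 1. With the library group as a replicate block in edgeR the counts were 6 and 0, and Bub1 lost its call (adjusted p = 0.0588). No member was called by edgeR with or without the block. The limma fit, which called Ezh2, Uhrf1 and Dnmt1, was not repeated with the block. Deviations of sums of the same library group correlated at 0.04 to 0.12 (Mki67) and 0.02 to 0.07 (Dcx). Signs turned for log2 fold changes that had not passed the test; the cause was not tested. Between Mki67 classes, limma gave 0.94 for Eed, 0.64 for Tet1, 0.25 for Ezh1, 0.38 for Aldoc, 0.0122 for Olig2 and 0.10 for Smug1. Tet1 gave 0.33 with DESeq2, 0.42 with median-of-ratios size factors, 0.0406 without cells of unusual depth and 0.0554 without glial cells. The replicate block gave 3.10 for Aldoc, -0.87 for Apoe and 0.67 for Smug1, and Apoe gave -0.22 without cells of unusual depth. Leaving out 1 library group gave -0.90 to 2.66 for Dnmt3a, -1.68 to 0.34 for Tet1, -2.41 to 1.10 for Aldoc and -3.50 to 0.49 for Smug1. Between Dcx classes, limma gave -0.60 for Ezh2, 0.38 for Cnp, 0.0335 for Kdm6a, 0.38 for Kdm6b, 0.24 for Mbp and 0.35 for Rbfox3. The replicate block gave 1.10 for Tet1, 0.56 for Kdm6a and 0.00512 for Kdm6b, thinning 0.20 for Tet1 and 0.15 for Kdm6b, no filter 0.00291 for Suz12, and other class limits -0.66 for Barhl1 and 0.36 for Pcgf3. Leaving out 1 library group gave -0.0842 to 0.31 for Ezh2, -0.91 to 2.49 for Suz12, -0.0381 to 2.65 for Dnmt1, -2.03 to 1.26 for Dnmt3a, -1.01 to 0.62 for Tet1, -1.57 to 1.02 for Tet3, -0.86 to 0.67 for Kdm6a, -0.45 to 0.60 for Kdm6b and -1.42 to 0.0367 for Rbfox3.

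Differences in mean log2(CPM + 1) turned, between Dcx classes, for Ezh2 (0.18) and Dnmt1 (-0.13) with other class limits and Tet3 (0.0228) without glial cells. Leaving out 1 library group gave -1.0 to 0.23 for Suz12, -0.20 to 0.57 for Dnmt1, -1.13 to 0.38 for Tet2 and -0.72 to 0.47 for Tet3, and -0.0293 to 0.47 for Ezh1 between Mki67 classes. The median of all genes between Mki67 classes shifted by 0.61 with limma, 0.37 with DESeq2 and -0.29 with the replicate block. Shares of cells at 10 CPM stayed within their intervals in 60 of 60 alternatives. Besides thinning, these left out at most 3 Mki67-high cells and 1 Mki67-low cell, which could hardly move a share beyond its interval. Shares with at least 1 count moved in 21 of 40. Every sum held at least 3 cells, so a minimum of 2 cells changed nothing.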
